A study of Mus musculus with 3 samples.

Results

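Neuropilins, semaphorins and plexins form a ligand and receptor system that was described here through 9 genes of mouse regulatory T cells, out of 22457 genes counted. The genes were Nrp1 and Nrp2 (neuropilins), Sema4a, Sema4d and Sema7a (semaphorins), and Plxna1, Plxnb2, Plxnc1 and Plxnd1 (plexins). They were taken by name, after the Ensembl identifiers of the count tables had been matched to gene symbols. The rule takes them by gene name and sets no threshold on a measured value. The members were chosen with earlier results of these data known, so their levels relative to other genes may reflect that choice.

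Semaphorins are secreted or membrane-bound ligands with a conserved sema domain, first described in axon guidance and since then in immune cell contact and migration. Plexins are their main receptors and signal through a GTPase-activating domain that acts on small GTPases of the Ras and Rap families. Neuropilins are transmembrane co-receptors with short intracellular tails, which bind class 3 semaphorins and vascular endothelial growth factors (VEGFs). In the mouse, NRP1 is a surface marker of regulatory T cells that arise in the thymus, and Sema4a has been described as a ligand of NRP1 on these cells.

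The cells were primary regulatory T cells of adult mice aged 4 months, labelled as originating from haematopoietic cells of the bone marrow, with no genotype or treatment given and with sex not collected. PolyA plus RNA-seq was deposited for 3 libraries, numbered as technical replicates 1 to 3 of 1 biological replicate. They form 1 group, so no condition was compared, and every spread below is that between libraries and not that between animals. How the cells were sorted, and whether animals were pooled, is not given in the sources used here.

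The libraries held 3206781, 3228215 and 2872350 counts in libraries 1, 2 and 3. In all 3 libraries 10866 genes reached 1 CPM (counts scaled to 1000000 per library). Levels of different genes are compared as TPM by coding length, that is, counts divided by the length of a gene's coding sequence and scaled to 1000000 per library. A count of 3 in a library, used as the floor, corresponded to 0.929 to 1.04 CPM. All 10 regulatory T cell markers checked reached 1 CPM in every library, and Foxp3, the lineage transcription factor, had 455, 507 and 432 counts in libraries 1, 2 and 3. Genes listed as markers of other cells were also counted, and their sums differed between libraries. The 9 B cell markers summed to 242, 329 and 463 CPM, the 6 plasma cell markers to 195, 292 and 228 CPM, the 7 neutrophil markers to 1.56, 78.4 and 9.40 CPM, and the 6 erythroid markers to 9.36, 137 and 118 CPM. The sums were 79.5, 85.5 and 104 CPM for 8 monocyte or macrophage markers, 172, 140.3 and 164 CPM for 9 dendritic cell markers, and 34.6, 39.96 and 55.01 CPM for 5 NK cell markers. The 8 endothelial or stromal markers summed to 1.56, 1.86 and 2.09 CPM, and Kdr, Emcn and Pdgfrb among them had no count. Some sums came mostly from a few genes. In library 1 these were Prdm1 and Xbp1 (101 and 56.8 CPM, plasma cell), Bst2 and Ccr9 (82.9 and 64.2 CPM, dendritic cell) and Prf1 (24.9 CPM, NK cell). Sdc1 had 0, 8 and 0 counts, Tnfrsf17 0, 0 and 1, Clec9a 0, 1 and 1, and Ncr1 0, 6 and 4. Whether the regulatory T cells themselves gave these counts was not tested. In a bulk library, more cells of a type and more RNA per cell cannot be told apart.

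Nrp1 was the most abundant member, and its paralogue Nrp2 lay at the detection floor. Nrp1 (ENSMUSG00000025810.8, chromosome 8, 128358604 to 128503363, plus strand, mm10) had 2815, 2756 and 2158 counts in libraries 1, 2 and 3. These correspond to 435, 405 and 365 TPM, with a mean of 402 ± 34.8 TPM (SD, n = 3), which ranked 460 among the 21784 genes with a coding length. All 3 libraries were high, with library 3 the lowest. The ratio between libraries varied with counts per coding base, as given below. Whether counts stay proportional to RNA at this abundance was not tested, which limits the levels, ranks and ratios reported here. Nrp2 (ENSMUSG00000025969.11, chromosome 1, 62703285 to 62818695, plus strand), the neuropilin best known as a receptor of SEMA3F and VEGF-C, had 4, 0 and 6 counts. Its pooled level was 1.07 CPM, with a 95% exact Poisson interval of 0.515 to 1.98 CPM. Intervals and floors cover counting error only.

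Nrp1 exceeded Nrp2 by 857-fold per coding length in the pooled counts (7729 against 10), a log2 ratio of 9.74 with a 95% exact binomial interval of 8.86 to 10.8. Within libraries the log2 ratio was 9.61 in library 1 and 8.64 in library 3. In library 2 Nrp2 had no count, and Nrp1 was 1019-fold above the floor of 3 counts per coding length. That value rests on the chosen floor and is not a confidence bound. The level ranges of the paralogues did not come near each other. With 10 counts in all, the size of the ratio rests on few reads of Nrp2.

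The coding sequences of the paralogues differ enough for short reads to be told apart, which the following stretches show. Nrp1 and Nrp2 were identical at 65.2% of 2640 aligned coding bases. Of the 2734 overlapping 36-base words in the coding sequence of Nrp1 and the 2758 of Nrp2, 0 occurred in the transcripts of another gene on either strand. The longest exact run that the paralogues share has 16 bases. It is printed in capitals below with the bases on either side (GENCODE M21 transcripts, plus strand), at coding positions 241 to 256 of Nrp1 and 244 to 259 of Nrp2, counted from 1 at the A of the start codon.
Nrp1: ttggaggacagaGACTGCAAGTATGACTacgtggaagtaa
Nrp2: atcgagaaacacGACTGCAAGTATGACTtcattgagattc
The read length is not given in the sources used here, so 36 bases was a choice.

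The promoters of both neuropilin genes are shown because the genes lie at opposite ends of the levels. They are RefSeq entries of GRCm38.p6, from 250 bases before to 50 bases after the start, at chr8:128358823-128359122 for Nrp1 and chr1:62703067-62703366 for Nrp2, both on the plus strand. Capitals mark the GC box GGGCGG on either strand.
Nrp1: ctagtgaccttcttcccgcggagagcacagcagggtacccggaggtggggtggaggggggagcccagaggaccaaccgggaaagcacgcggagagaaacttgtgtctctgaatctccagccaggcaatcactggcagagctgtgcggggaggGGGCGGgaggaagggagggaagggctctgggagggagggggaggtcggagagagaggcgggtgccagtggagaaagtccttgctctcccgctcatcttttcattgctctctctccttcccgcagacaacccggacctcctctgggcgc
Nrp2: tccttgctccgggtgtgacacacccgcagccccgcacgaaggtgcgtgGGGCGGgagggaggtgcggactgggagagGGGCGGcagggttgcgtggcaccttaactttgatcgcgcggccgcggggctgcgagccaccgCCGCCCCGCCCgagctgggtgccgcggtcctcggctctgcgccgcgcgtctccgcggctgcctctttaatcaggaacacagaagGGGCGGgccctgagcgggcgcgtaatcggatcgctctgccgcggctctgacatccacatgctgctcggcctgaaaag
The Nrp1 window held 1 GC box and 14 CpG dinucleotides at 64.0% GC. The Nrp2 window held 5 GC boxes, 2 of which lie next to each other with shared bases, and 37 CpG dinucleotides at 70.7% GC. Over 32851 RefSeq promoters of this length, 35.7% held a GC box and the median number of CpG dinucleotides was 7. Neither window held the forkhead core TGTTTAC on either strand, which 3.65% of all promoters held. These matches are letters in a window and not measured binding sites. Of the 9 members 8 had a promoter entry, and Plxna1 had none.

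**Figure D1:**
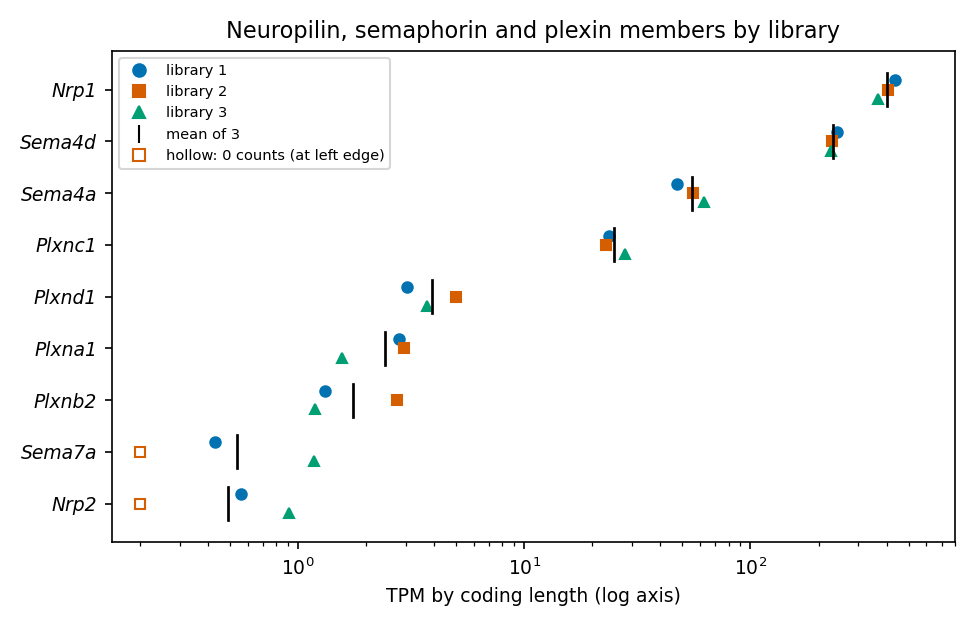
TPM by coding length (log axis) of the 9 members in libraries 1 (circles), 2 (squares) and 3 (triangles), with the mean of the 3 as a vertical bar and counts of 0 as hollow symbols at the left edge. Nrp1 and Sema4d lie above 200 TPM in every library, Sema4a and Plxnc1 between 22.95 and 62.5 TPM, and Nrp2 and Sema7a at or near 0.

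Among the ligands, Sema4d was abundant, Sema4a was intermediate and Sema7a lay at the floor. Sema4d (ENSMUSG00000021451.11, chromosome 13, 51685529 to 51793747, minus strand) encodes CD100, a transmembrane semaphorin of T cells that binds plexin B receptors and, on B cells, CD72. It had 1751, 1748 and 1505 counts, or 240.1, 228 and 226 TPM, with a mean of 231 ± 7.51 TPM. The 3 libraries lay close together.

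Sema4a (ENSMUSG00000028064.13, chromosome 3, 88435959 to 88461182, minus strand) encodes a transmembrane semaphorin whose described receptors in mice include NRP1, plexin B and D1 proteins and TIM-2. It had 261, 323 and 315 counts, or 47.3, 55.7 and 62.5 TPM (mean 55.1 ± 7.64 TPM). Library 1 was the lowest. Sema7a (ENSMUSG00000038264.7, chromosome 9, 57940112 to 57962865, plus strand) encodes a semaphorin anchored to the membrane by a lipid, with plexin C1 and the integrin alpha 1 beta 1 as receptors. It had 2, 0 and 5 counts, a pooled level of 0.752 CPM with a 95% exact Poisson interval of 0.302 to 1.55 CPM.

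Among the plexins, Plxnc1 stood above the other 3. Plxnc1 (ENSMUSG00000074785.4, chromosome 10, 94790866 to 94944835, minus strand), the plexin that binds SEMA7A, had 268, 272 and 288 counts, or 23.8, 22.95 and 27.98 TPM (mean 24.9 ± 2.70 TPM). In TPM it lay above Sema7a, the gene of that ligand, in every library. Plxnd1 (ENSMUSG00000030123.11, chromosome 6, 115954811 to 115995005, minus strand), a receptor of SEMA3E and SEMA4A with a described part in thymocyte migration, had 41, 71 and 46 counts, or 3.04, 5.01 and 3.73 TPM.

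Plxna1 (ENSMUSG00000030084.7, chromosome 6, 89316314 to 89362620, minus strand), a partner of neuropilins in binding class 3 semaphorins, had 37, 41 and 19 counts, or 2.78, 2.94 and 1.57 TPM. Library 3 was the lowest. Plxnb2 (ENSMUSG00000036606.12, chromosome 15, 89155549 to 89180788, minus strand), a receptor of class 4 semaphorins, had 17, 37 and 14 counts, or 1.32, 2.73 and 1.19 TPM. Library 2 stood above the other libraries.

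In the annotation, exons of 4 members overlap another gene. Gm26811 lies opposite Plxna1 and shares 970 exon bases with it, and 11.7% of the 36-base words of the Plxna1 coding sequence occur in it on the reverse strand. Gm48718 shares 115 exon bases and 1.75% of the coding words with Plxnc1 on the same strand. Mir1903 shares 80 exon bases with Nrp1 and Mir7011 shares 73 with Sema4a. None of these 4 overlapping genes is among the genes counted, and the strand setting of the counting is not given in the sources used here. Reads of Plxna1 and Gm26811 therefore cannot be told apart within the stretch they share. Reads of Plxnc1 and Gm48718 cannot be told apart within theirs under any strand setting.

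Ordered by TPM, the members ran from Nrp1 through Sema4d, Sema4a, Plxnc1, Plxnd1, Plxna1, Plxnb2 and Sema7a to Nrp2. Nrp1 made up 55.5% and Sema4d 32.1% of the members' summed TPM, as a mean over the libraries. Each gene exceeded the next by 1.74, 4.197, 2.22, 6.34, 1.62, 1.39, 3.26 and 1.09-fold in mean TPM, in that order. The library values of neighbours did not overlap except for Plxna1 and Plxnb2 and for Sema7a and Nrp2. Plxnb2 and Sema7a were barely apart in library 3, at 1.19 TPM (14 counts) and 1.18 TPM (5 counts), a gap too small to separate them given counting error. Plxna1 was above Plxnb2 within each of the 3 libraries, and Sema7a was above Nrp2 in 1 of 3. The order was the same when exon length replaced coding length. Of the 9 members 7 reached 1 CPM in every library, and their median over all 9 was 3.93 TPM, against 1.89 TPM over all genes with a coding length.

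The genes nearest to Nrp1 in level were Hcls1, Tnfrsf9, Evl, Ctsa and Sra1, among 6265 genes with a mean count of at least 100. Likeness was the largest absolute difference of log2 TPM from Nrp1 in any of the 3 libraries, which was 0.042 for Hcls1 and 0.072 to 0.094 for the other 4. Hcls1, a haematopoietic actin regulator, had 435, 394 and 355 TPM in libraries 1, 2 and 3. Tnfrsf9, which encodes the costimulatory receptor 4-1BB, had 414, 404 and 379 TPM. Over 3 technical libraries of 1 sample this is a likeness of level and says nothing of a shared pattern across conditions.

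The only test that the design allows is whether the technical libraries differ by more than counting error. Nrp1, Sema4a and Plxnb2 differed, each with another library at the top. They were 3 of the 7 members tested at a Benjamini-Hochberg adjusted p of 0.05 (chi-square test against Poisson over all 10282 genes with a mean count of at least 10), a share to be read against 27.6% of all genes tested. Nrp2 and Sema7a fell under that count. The highest library exceeded the lowest by a median of 1.34-fold over the 7 members and 1.25-fold over all genes tested. With extra spread of 12.5% (coefficient of variation) between libraries allowed for every gene in a negative binomial model, 0 of the 7 members passed, against 0.904% of all genes. That spread comes from the same 3 libraries. The model therefore asks only whether a gene varied more than genes in general did. The negative binomial p was under 0.05 before adjustment for 1 of the 7 members, Plxnb2, and for 689 of the 10282 genes.

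Nrp1 was highest in library 1 and lowest in library 3. After scaling by TMM (trimmed mean of M values) the ratio of library 3 to library 1 was 0.853, with a 95% exact binomial interval of 0.806 to 0.903 (adjusted p = 4.18e-06, chi-square). Without library 3 the adjusted p was 0.223. The ratio between libraries varied with abundance. For unscaled counts of library 3 over library 1 the median log2 ratio was -0.22 among genes at 0.05 to 0.1 counts per coding base and -0.036 among those at 1.6 to 3, while the totals differed by -0.16. Nrp1 had 0.930 counts per coding base and a log2 ratio of -0.38. Among the 271 genes at 0.8 to 1.1 counts per base this ratio had a median of -0.098, and 11 of the 271 lay under Nrp1. The 6 general T cell markers summed to 3961, 3809.8 and 3913 CPM in libraries 1, 2 and 3, and 5 of them passed the chi-square test, 2 highest in library 1 and 3 highest in library 3. Among these, Cd4 had a scaled ratio of library 3 to library 1 of 0.808 (interval 0.755 to 0.865). Of the 10 regulatory T cell markers 4 passed. Both marker counts are to be read against 27.6% of all genes tested. The share was 60.5% among genes with a mean count near that of Sema4d and 71.6% near that of Nrp1. Nt5e, with 1671 counts in library 3 and 2015 in library 1, and Itgae, with 1272 in library 3 and 1715 in library 1, were highest in library 1, as Nrp1 was. Il2ra and Gpr83 were highest in library 3. Foxp3 did not pass, and its scaled ratio of library 3 to library 1 was 1.06 (0.924 to 1.21). B cell markers were highest in library 3 (463 CPM in library 3 against 242 CPM in library 1), and their part in the difference was not tested.

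**Figure D2:**
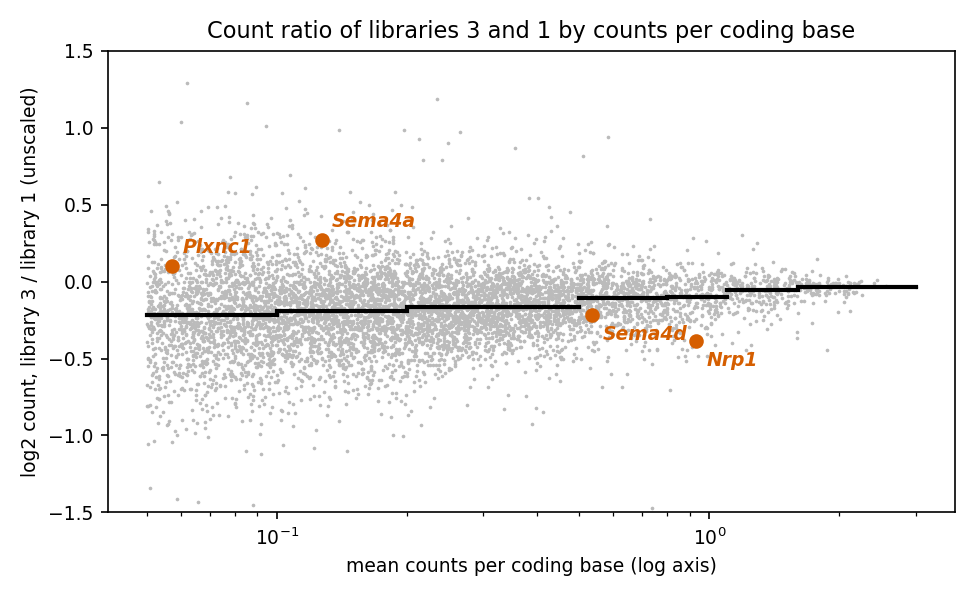
Log2 ratio of unscaled counts, library 3 over library 1, against mean counts per coding base (log axis), for 6773 genes with a mean count of at least 50, 0.05 to 3 counts per coding base and a count in both libraries (grey points, of which 13 lie outside the plotted range), with medians within bins as black bars and the members Nrp1, Sema4d, Sema4a and Plxnc1 as orange points. Nrp1 lies under the median of its bin (-0.38 against -0.098) and Sema4a above its own (0.27 against -0.19).

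Sema4a was lowest in library 1 and highest in library 3, with a ratio of library 3 to library 1 of 1.34 and an exact binomial 95% interval of 1.14 to 1.59 (chi-square, adjusted p = 0.011). This followed the order of the B cell marker sum, which was 463 CPM in library 3, 329 CPM in library 2 and 242 CPM in library 1. The monocyte or macrophage, NK cell and endothelial or stromal sums rose in the same order, from library 1 through library 2 to library 3. The match in order was therefore not particular to B cells. The dendritic cell marker sum was 164 CPM in library 3, 140.3 CPM in library 2 and 172 CPM in library 1. Most of that sum came from Bst2 (82.9, 80.9 and 59.2 CPM in libraries 1, 2 and 3) and Ccr9 (64.2, 28.2 and 70.0 CPM). Of the 5 dendritic cell markers tested 3 passed, against 27.6% of all genes tested. Bst2 was highest in library 1, and Ccr9 and Flt3 (2.49, 2.48 and 7.66 CPM) were highest in library 3. B cells and dendritic cells also express Sema4a. The part of each of these cell types in the difference was not tested. The adjusted p was 0.352 without library 1 and 0.0953 without library 3. Plxnb2 was highest in library 2, at 2.11-fold over library 1 (interval 1.16 to 3.99) and with a ratio of library 3 to library 2 of 0.435 (interval 0.217 to 0.824; adjusted p over the 3 libraries 0.0202, chi-square). The neutrophil marker sum was also highest in library 2, with 78.4 CPM against 1.56 CPM in library 1 and 9.40 CPM in library 3. So were the erythroid sum (9.36, 137 and 118 CPM in libraries 1, 2 and 3) and the plasma cell sum (195, 292 and 228 CPM). The B cell, monocyte or macrophage, NK cell and endothelial or stromal sums were highest in library 3, and the dendritic cell sum in library 1. The part of these cells was not tested. Among plasma cell markers Jchain was highest in library 2, with 120.5 CPM against 28.7 CPM in library 1 and 44.9 CPM in library 3. Jchain was the 1 of 4 tested that passed, against 27.6% of all genes tested. Xbp1 and Mzb1 were highest in library 3, at 70.3 and 15.0 CPM, and Prdm1 in library 1, at 101 CPM. Without library 2 the adjusted p of Plxnb2 was 0.917.

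The other 4 tested members did not pass. Sema4d varied least, with its highest library 1.05-fold over its lowest (adjusted p = 0.556, chi-square). The ratio of library 3 to library 1 was 0.957, with an interval of 0.892 to 1.03. Plxnc1, Plxnd1 and Plxna1 had adjusted p-values of 0.101, 0.0772 and 0.144, with highest over lowest at 1.22, 1.68 and 1.88-fold. The share of all genes that passed differed with mean count. Among genes with a mean count within 1.25-fold of that of Nrp1 it was 71.6%, around Sema4d 60.5%, around Sema4a 32.6%, around Plxnc1 31.2%, around Plxnd1 16.3%, around Plxna1 14.6% and around Plxnb2 15.3%. Sema4d did not pass although its neighbours in count mostly did, and Plxnb2 passed although its neighbours mostly did not.

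**Figure D3:**
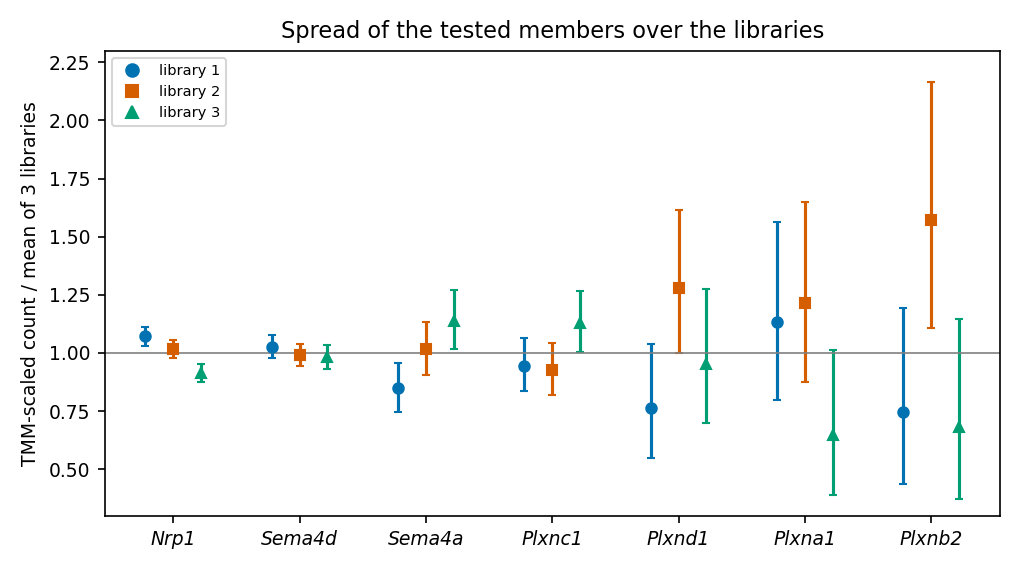
TMM-scaled count of the 7 tested members in libraries 1 (circles), 2 (squares) and 3 (triangles), each divided by the member's mean over the 3, with 95% exact Poisson intervals as bars. Intervals of Nrp1 and Sema4d are narrow, Nrp1 runs from 1.07 in library 1 to 0.914 in library 3, and Plxnb2 reaches 1.57 in library 2.

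The rest of the family was mostly undetected. Of the 31 mouse neuropilin, semaphorin and plexin genes, 13 reached 1 CPM in every library, namely 7 of the 9 members and 6 of the 22 others, against 10866 of 22457 genes overall. The median over the 22 others was 0.162 CPM, against 1.37 CPM over all genes. Because the members were chosen with earlier results known, their contrast with the 22 others may reflect that choice. Sema4b, a transmembrane semaphorin, led the others at 20.8 ± 2.88 TPM, with 131, 106 and 117 counts. Plxna3, a partner of neuropilins, had 65, 49 and 54 counts (4.34 ± 0.714 TPM), Plxnb1, the high-affinity receptor of SEMA4D, 40, 54 and 29 counts (2.76 ± 0.663 TPM) and Sema4f 25, 30 and 22 counts (4.75 ± 0.432 TPM). Sema6d, a transmembrane ligand of plexin A1, had 21, 19 and 15 counts, and Sema3d, a secreted class 3 semaphorin, had 26, 16 and 8 counts. Of these 6 genes 0 passed the chi-square test, against 27.6% of all genes tested. That share was 14.6% to 16.3% among genes with mean counts near those of Plxna1, Plxnb2 and Plxnd1, so 0 of 6 says little. Sema3d had an adjusted p of 0.0545 (chi-square), and it alone had an unadjusted p under 0.05.

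The secreted class 3 semaphorins, the classical ligands of neuropilins, were mostly undetected and summed to 9.04, 4.96 and 3.13 CPM in libraries 1, 2 and 3. Sema3d was the 1 of 7 that reached 1 CPM in every library, Sema3c, Sema3f and Sema3g had no count, and Sema3a, Sema3b and Sema3e had 1, 2 and 1 counts over the 3 libraries together. Of the 6 class 4 semaphorins 4 reached 1 CPM in every library (Sema4a, Sema4b, Sema4d and Sema4f). Of the 6 class 5 and class 6 semaphorins 1 did, Sema6d. Plexins were detected in classes A (2 of 4), B (2 of 3), C and D, and Plxna2 and Plxna4 had no count. A gene with no count in the pooled 3 libraries could have a level of up to 0.396 CPM by the 95% exact Poisson interval.

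**Figure D4:**
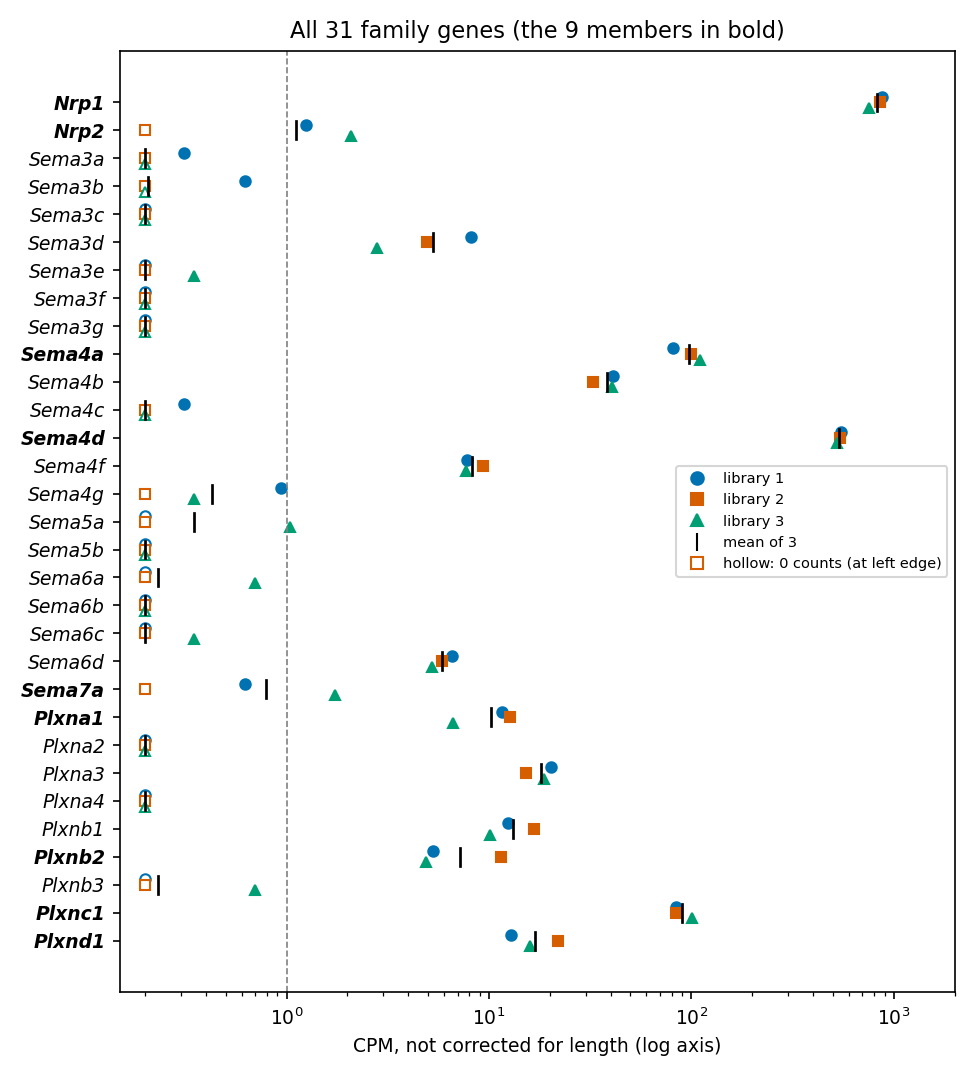
CPM (not corrected for length, log axis) of all 31 family genes in libraries 1, 2 and 3, with the mean of the 3 as a bar, counts of 0 as hollow symbols and all values under 0.2 CPM at the left edge. The dashed line is 1 CPM. The 13 genes to its right in every library include 7 of the 9 members, in bold.

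Other receptors and ligands that pair with the members were set beside them. Cd72, the SEMA4D receptor best known on B cells, had 494, 384 and 504 counts (186 ± 37.7 TPM) and differed between libraries (adjusted p = 1.91e-07, chi-square). It was highest in library 3 and lowest in library 2. The B cell marker sum was highest in library 3 and lowest in library 1. The part of B cells in the level of Cd72 was not tested. Itgb1, the beta 1 integrin chain of the SEMA7A receptor, had 1219, 1305 and 907 counts (199.8 ± 23.8 TPM), while Itga1, its alpha 1 partner chain, had 3, 7 and 8 counts. Timd2, which encodes TIM-2, had 2 counts in library 1 and none in the other libraries. The VEGF receptor genes Kdr and Flt4 had no count and Flt1 had 3 counts, all in library 1. Of the VEGF family ligands, Vegfb had 6, 11 and 6 counts, Vegfc 1, 2 and 5, Vegfa 1 in library 3, and Pgf none. Tgfb1, a cytokine that NRP1 has been reported to bind, had 40, 15 and 26 counts. Of the 17 partner genes 6 reached 1 CPM in every library, and 4 of 5 tested passed the chi-square test (Cd72, Itgb1, Tgfb1 and Hgf), against 27.6% of all genes tested.

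Genes that act inside the cell were detected more broadly, with 28 of 29 at 1 CPM in every library and Mras at 0. They had a median of 27.2 TPM. Near the receptor, Gipc1, an adaptor that binds the intracellular tail of NRP1, stood at 52.8 ± 14.75 TPM, and Mical1, a monooxygenase that acts on actin downstream of plexins, at 146 ± 17.8 TPM. Mical2 and Mical3, its relatives, stood at 0.720 and 1.61 TPM. Fyn, a kinase of plexin A signalling, stood at 133 ± 3.13 TPM, Sh3bp1, a GTPase-activating protein for RAC1 that plexin D1 engages, at 145 ± 10.7 TPM, and Rnd1, a GTPase that binds plexins, at 3.06 ± 0.595 TPM. Targets of the plexin GTPase-activating domain were Rap1a and Rap1b at 182 and 193 TPM and Rras and Rras2 at 20.3 and 17.6 TPM. The exchange factors Arhgef11 and Arhgef12, which bind plexin B proteins, stood at 13.1 and 10.3 TPM. Cfl1 and Rhoa stood at 425 and 355 TPM by coding length, and at 345 and 76.7 TPM by exon length. They belong with Rac1 and Rap1a to genes that have processed copies in the genome, so their counts are uncertain.

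Akt1 and Foxo3, which have been placed downstream of SEMA4A and NRP1 in mouse regulatory T cells, stood at 28.4 ± 3.21 and 1.89 ± 0.451 TPM. Akt1 had 108, 96 and 80 counts and did not pass the chi-square test (adjusted p = 0.518), and Foxo3, with 7, 12 and 9 counts, was not tested. Of 26 signalling genes tested 8 passed, a share near the 27.6% of all genes tested. They were Gipc1, Mical1, Rac1, Rhoa, Rras2, Rap1b, Cdk5 and Gsk3b. The surface proteases Adam10 and Adam17, which release the outer part of many membrane proteins, stood at 136 ± 5.26 and 95.9 ± 15.2 TPM, and Mmp14, which has been described to release SEMA4D, had 3, 1 and 3 counts.

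**Figure D5:**
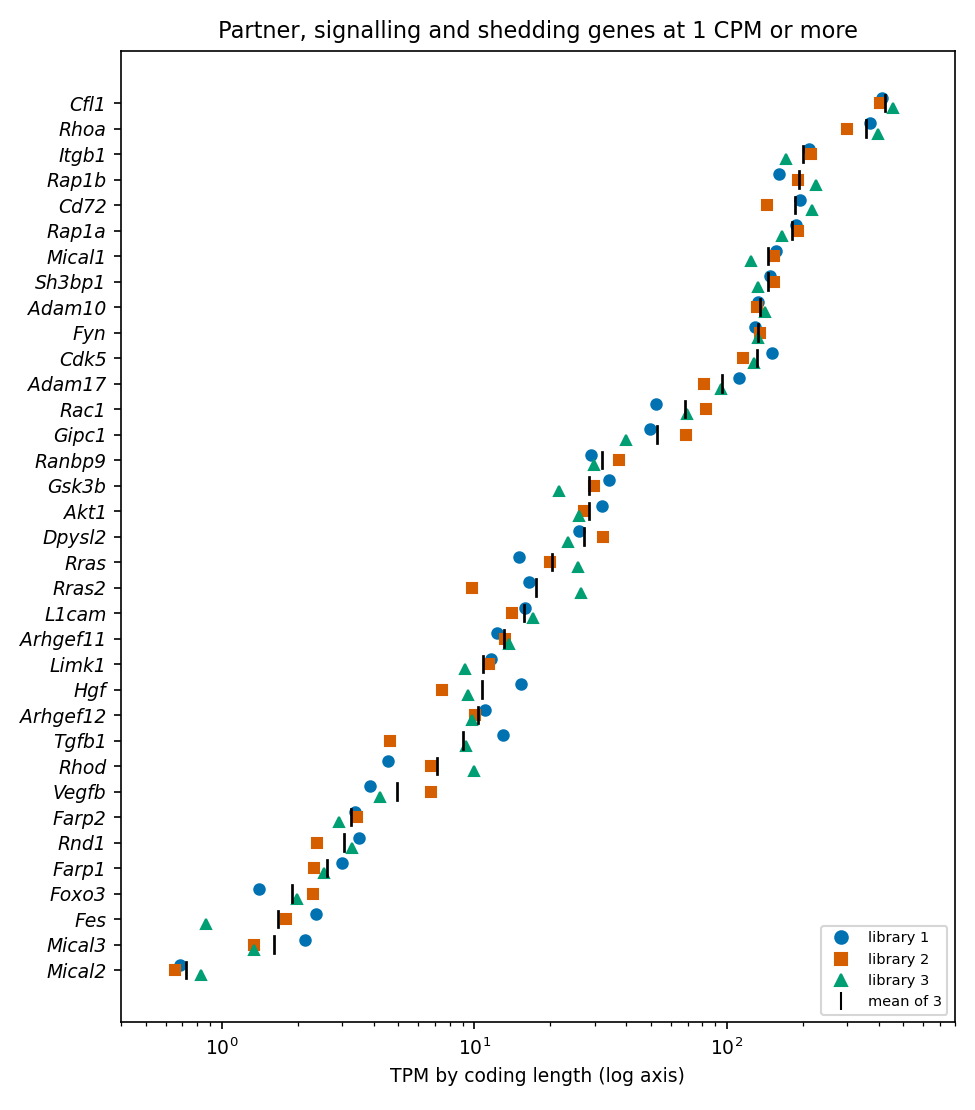
TPM by coding length (log axis) of 35 partner, signalling and shedding genes that reached 1 CPM in every library, in libraries 1 (circles), 2 (squares) and 3 (triangles), with the mean of the 3 as a bar. Levels run from 425 TPM for Cfl1 to 0.720 TPM for Mical2, and Gipc1 and Akt1 lie in the middle at 52.8 and 28.4 TPM.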

How the data were processed

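The deposited tables hold whole-number counts per gene for 3 libraries of 1 group, made with the mm10 assembly and GENCODE M4, per the file descriptions deposited with them. How reads were aligned and counted, with which strand option, was not given in the sources used here. Identifiers were matched without version to GENCODE M21 (same assembly), where 22195 matched and 262, with 0.117% of the counts, did not. Coordinates are those of M21.

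CPM used the total count. TPM used the union of a gene's coding bases (21784 genes, 99.8% of the counts). Each gene's 3 counts were tested with Pearson's chi-square against Poisson expectation (2 degrees of freedom), with totals times TMM factors from edgeR 4.0.16 in R 4.3.3, at a mean count of at least 10, and adjusted by Benjamini-Hochberg over all genes. A quasi-likelihood test has no contrast in 1 group. The p-values measure the spread between technical libraries. The code was tested on simulated data.

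Depth was 2872350 to 3228215 counts per library. As alternatives, scaling used DESeq2 1.42.0 or the totals alone, the count minimum was dropped or raised, a common negative binomial dispersion was allowed, levels used exon length or no length, the CPM threshold was varied, and each library was left out. Once the data had been seen, library sizes from genes at 0.5 or fewer counts per coding base were tried too. The members and gene lists were chosen with earlier results of these data known. Genes were named by a rule: the members, the family, partner, signalling and shedding lists, the markers, and the 5 genes nearest to Nrp1. The values of 1 signalling gene are not reported here. Software was Biopython 1.88, matplotlib 3.10.9, pandas 2.3.3, scipy 1.17.1 and numpy 2.4.6 under Python 3.11.15.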

Additional observations from a re-analysis of the deposited data

How the results depend on the processing

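With the negative binomial model, whose spread comes from the same libraries, 0 members and 93 genes passed. With the Poisson expectation 3 and 2836 did, and all 93 were among the 2836. The adjusted p was then 0.99997 for Nrp1 and Sema4a and 0.501 for Plxnb2. With each library left out in turn, the number of members that passed was 2 each time, not the same ones (Nrp1 and Plxnb2 without library 1, Nrp1 and Sema4a without library 2, Plxnb2 and Plxnd1 without library 3), and the number of genes was 960 to 2014 (1691 without library 1, 960 without library 2). The adjusted p over these ranged from 3.48e-06 to 0.223 for Nrp1, 0.00865 to 0.352 for Sema4a, 0.0415 to 0.917 for Plxnb2 and 0.0391 to 0.581 for Plxnd1. Library sizes from genes at 0.5 or fewer counts per coding base, chosen after seeing the data, added Plxnd1 (adjusted p = 0.0479) to the 3. DESeq2 size factors, plain totals and no count filter kept the same 3 members, and a minimum mean count of 50 left Plxnb2 untested. Exon length gave mean levels over 1.5 times those by coding length for Plxnd1 (8.69 against 3.93 TPM), Plxnb2 (3.49 against 1.74), Plxna1 (4.26 against 2.43), Plxnc1 (40.2 against 24.9) and Sema7a (0.905 against 0.535), gave 318 TPM for Nrp1, and kept the order of the members. The log2 ratio of Nrp1 to Nrp2 lay between 9.11 and 10.6 with each library left out. With each library left out, 7 to 8 members and 13 to 14 family genes reached 1 CPM, the added gene being Nrp2 without library 2, and at 5 CPM 6 and 11 did. Depth limits Nrp2 and Sema7a, which were not tested. No paired analysis was possible because the labels give 1 group.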
